A study of Mus musculus with 9 samples.

Results

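The transcriptome of the mouse dorsal lateral geniculate nucleus (dLGN) at the end of a week of darkness was taken from the 3 libraries of the series that received no light, out of 9 in all. The members are the 20707 genes that the deposited tables list for these 3 libraries, each described by its level. All 9 libraries came from C57BL/6J wild-type mice of both sexes that were kept in darkness from postnatal day 20 and killed at postnatal day 27. The 3 libraries here had 0 h of light, and the others had 1 or 8 h and were not compared. No allele, transgene or injected agent is named for any group. The labels give 3 mice at each time, handled as independent samples. The nucleus was cut out by eye from vibratome sections, so a library can hold cells of the tissue around it. RNA was depleted of ribosomal RNA before sequencing, so RNAs without a poly(A) tail are in the measurement.

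The dLGN passes signals from the retina to the visual cortex. Its relay neurons use glutamate, and switch between tonic and burst firing through low-threshold (T-type) calcium channels and the hyperpolarisation-activated (HCN) channels that set their resting potential. Local interneurons and the neighbouring reticular nucleus inhibit them with GABA, and the brainstem modulates them with acetylcholine, noradrenaline, serotonin and histamine. Optic tract and thalamocortical axons in and around the nucleus are myelinated, and astrocytes wrap the synapses of retinal axons.

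Libraries held 5728414, 18425352 and 15223155 reads in genes, so the first is the least precise. A level is given as deposited density, which is reads divided by exon length and scaled by library. Here 1 density unit was on average 4.96 RPKM, reads per kilobase of exon scaled to library depth. CPM, the read count scaled to library depth and not divided by length, is used in some passages to follow 1 gene between libraries. It is also used, where said, for the order of genes by reads. Other comparisons between libraries are by density. A gene counted as detected with at least 3 reads in each library, a floor of 0.524, 0.163 and 0.197 CPM. By this rule 15493 genes were detected, 5214 fell under the floor and 220 of these had no read. Detected genes included 13869 of 16085 protein-coding genes (86.2%) and 974 of 2882 long non-coding RNA genes (33.8%). Across detected genes, log2 CPM correlated between libraries with Pearson r of 0.984 to 0.987, a description over genes that share each library's depth. Values are given below as the 3 libraries in the order of their replicate numbers, and as mean ± SD with n = 3. Densities were shifted between libraries across detected genes. The median log2 difference was -0.0819 for replicate 2 minus 1 and 0.121 for replicate 3 minus 2. Comparisons of libraries by density include this shift.

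The libraries differed from each other in some genes. Replicate 2 was high in genes of the cortex and hippocampus: 0.342, 18.4 and 0.739 CPM for Neurod6 and 0.342, 16.7 and 0.739 CPM for Neurod2, both transcription factors of forebrain neurons. It was low in GABA genes, with 173, 55.5 and 174 CPM for Gad2. Replicate 3 held more mitochondrial RNA, 5.68% of its reads against 2.44% and 2.95%. Most of it was mitochondrial ribosomal RNA, at 1.52%, 2.25% and 4.46% in replicate order. Mitochondrial protein genes took 0.918%, 0.696% and 1.22%. What the depletion of ribosomal RNA left of the former was not tested. Xist, which silences 1 X chromosome in female cells, was at 493, 525 and 0.336 CPM. Ddx3y, Eif2s3y, Kdm5d and Uty, genes of the Y chromosome, summed to 51.4, 65.0 and 142 CPM. Replicates 1 and 2 thus held both Xist and Y-linked RNA, and replicate 3 held Y-linked RNA with 5 Xist reads. How this came about, given the labels' 3 independent mice, was not tested. Where a gene below stood apart in replicate 2, its mean without that library is given beside it for most of these genes. In bulk tissue, fewer cells of a type and less RNA per cell cannot be told apart.

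Promoters with few CG dinucleotides were counted more often among the abundant glial genes than among the abundant relay neuron genes, with exceptions in both. RefSeq windows of 300 bases (GRCm38.p6, from 250 bases before to 50 bases after 1 annotated start of each gene) were matched for 14963 of the listed genes. The median number of CG dinucleotides in a window was 21 in genes of the top 1% of density, 23 in the rest of the top 10%, 17 in detected genes below the median and 6 in genes under the floor. Among all 1187 windows of the top 10% and above, 12.1% held fewer than 10 CG. Of the astrocyte markers at that level, 10 of 16 windows (62.5%) held fewer than 10, and of the myelin markers 7 of 11 (63.6%). Relay neuron markers at that level had 3 such windows of 14 (21.4%), with a median of 21.5, and genes of vesicle release had 2 of 10. These counts are a description of few windows and were not tested. The windows below run from 100 bases before to 50 bases after the start, with each CG in capitals, and show abundant glial genes next to abundant relay neuron genes:
Mobp: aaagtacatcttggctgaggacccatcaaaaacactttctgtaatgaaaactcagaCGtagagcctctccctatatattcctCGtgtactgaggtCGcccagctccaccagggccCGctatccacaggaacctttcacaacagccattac
Aldoc: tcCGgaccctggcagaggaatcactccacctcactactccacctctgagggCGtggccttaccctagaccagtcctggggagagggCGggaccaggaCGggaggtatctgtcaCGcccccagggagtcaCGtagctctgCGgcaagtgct
Apoe: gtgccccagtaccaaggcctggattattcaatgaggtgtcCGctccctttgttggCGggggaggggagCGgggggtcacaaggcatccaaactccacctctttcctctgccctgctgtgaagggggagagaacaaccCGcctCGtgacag
Cnp: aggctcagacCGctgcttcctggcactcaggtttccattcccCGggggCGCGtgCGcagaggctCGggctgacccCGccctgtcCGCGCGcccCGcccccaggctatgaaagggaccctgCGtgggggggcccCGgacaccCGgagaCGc
Cplx1: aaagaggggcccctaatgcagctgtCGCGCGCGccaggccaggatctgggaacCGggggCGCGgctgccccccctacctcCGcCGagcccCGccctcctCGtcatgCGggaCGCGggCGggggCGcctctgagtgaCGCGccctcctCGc
Prkcd: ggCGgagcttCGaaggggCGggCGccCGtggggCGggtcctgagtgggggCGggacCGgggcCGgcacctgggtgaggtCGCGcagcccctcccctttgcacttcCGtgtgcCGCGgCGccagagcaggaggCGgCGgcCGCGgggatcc
They lie at chr9:120149642-120149791 (plus strand) for Mobp, chr11:78322973-78323122 (plus strand) for Aldoc and chr7:19699139-19699288 (minus strand) for Apoe. Those of Cnp, Cplx1 and Prkcd lie at chr11:100574839-100574988 (plus strand), chr5:108549978-108550127 (minus strand) and chr14:30626159-30626308 (minus strand). Mobp, a myelin protein, held 4 CG in the stretch shown, and Aldoc and Apoe, an astrocyte glycolytic enzyme and the main brain lipid carrier, held 7 and 5. Cnp, a myelin enzyme, held 15. Over all 300 bases, Mobp and Aldoc held 5 and 8 CG, while Apoe held 10 and Cnp 17. Cldn11 and Cst3, abundant myelin and astrocyte genes whose windows are not printed, held 24 and 13, so the most abundant glial genes were themselves divided. Cplx1 (a complexin of fast release) and Prkcd (a protein kinase C of relay neurons) held 19 each.

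The TATA motif, searched as TATAAA on the gene's strand with its first base 40 to 20 bases before the start, was in 2.22% of all 27025 windows. It was in 2.86% of windows of the top 1% (3 of 105), in 1.479% of the rest of the top 10%, in 0.786% between the median and the top 10%, in 1.498% below the median and in 3.06% under the floor. The share was highest under the floor. The most abundant protein-coding gene that held it was Ckb, the creatine kinase of brain, at 177, 153 and 169.8 density. Its window from 60 bases before to 20 after the start, chr12:111672319-111672398 (minus strand), is shown with the motif in capitals:
Ckb: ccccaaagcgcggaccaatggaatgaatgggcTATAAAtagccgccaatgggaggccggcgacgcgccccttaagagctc
No match in another gene says only that these letters are not in its window.

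Several abundant transcripts also carry microRNA hairpins. Of 1005 hairpins in the RefSeq table, 607 lay inside 546 listed genes on the same strand, and 511 of these hosts were detected. Of the detected hosts, 78 (15.3%) were in the top 10% of density and 9 in the top 1%. The libraries measure the hosts, and mature microRNAs were not measured. The mature forms shown are those of well-known hosts, picked after their levels were seen, with the seed (bases 2 to 8) in capitals:
miR-338-3p: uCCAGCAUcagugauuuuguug
miR-153-3p: uUGCAUAGucacaaaagugauc
miR-770-5p: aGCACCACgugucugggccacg
miR-370-3p: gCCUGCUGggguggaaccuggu
miR-410-3p: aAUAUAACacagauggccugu
miR-103-3p: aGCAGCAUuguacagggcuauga
miR-107-3p: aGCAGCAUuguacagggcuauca
The host of miR-338 is Aatk, a kinase gene, at 29.5 density, and that of miR-153 is Ptprn2, a protein of secretory granules, at 16.9. Meg3, Rian and Mirg, maternally expressed RNAs of chromosome 12, host miR-770, miR-370 and miR-410. Meg3 was at 58.7 ± 2.56 density, Rian at 21.7 ± 1.27 and Mirg at 3.01 ± 0.511, so the last, with 10 hairpins inside it, was the least abundant of them in each library. The last pair shown shares the seed GCAGCAU, and their hosts are pantothenate kinase genes at 3.91 for Pank3, 1.895 for Pank2 and 1.201 for Pank1.

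The most abundant RNAs per length were structural. Rn7sk, the RNA that holds the transcription elongation factor P-TEFb inactive, led at 3341.7, 1924.4 and 4593.9 density (3286.7 ± 1335.6). mt-Rnr2, the large mitochondrial ribosomal RNA, followed at 1660.9, 2454.8 and 5031.7, and Rpph1, the RNA of ribonuclease P, at 796, 974 and 1376.9. The libraries disagreed on the order of Rn7sk and mt-Rnr2, and replicate 3 was the highest in all of them. The mt-Rnr2 level is the one left after depletion of ribosomal RNA, whose effect on it was not tested. Malat1, a nuclear RNA, was at 366, 390.0 and 379.9, with the libraries within a narrow range.

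mt-Co1, a subunit of cytochrome oxidase encoded in the mitochondrion, was at 452, 417 and 628, above Malat1 in each library. Mbp, a major myelin protein, stood at 266, 251 and 259. Cpe, which processes peptide hormones, averaged 199.6 ± 21.8. Rmrp, the RNA of ribonuclease MRP, had 45.8% of its exon bases in common with Ccdc107, so its 362 ± 210.5 may hold reads of that gene. By counts without length, long transcripts stood higher in the order: Map1b, a microtubule protein, had 2625.6, 2518.3 and 2797.1 CPM, and Sptbn1, a spectrin, 2682.0, 2567.0 and 2733.6 CPM. The 10 most counted genes took 7.74% ± 1.598 of reads, the 100 most counted 19.7% ± 1.497 and the 1000 most counted 51.3% ± 0.916. Density at the median of detected genes was 1.203, at the bound of the top 10% 6.75 and at that of the top 1% 31.7 (plot of level against rank). A typical detected gene therefore stood 26.4 times below the bound of the top 1%.

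**Figure D1:**
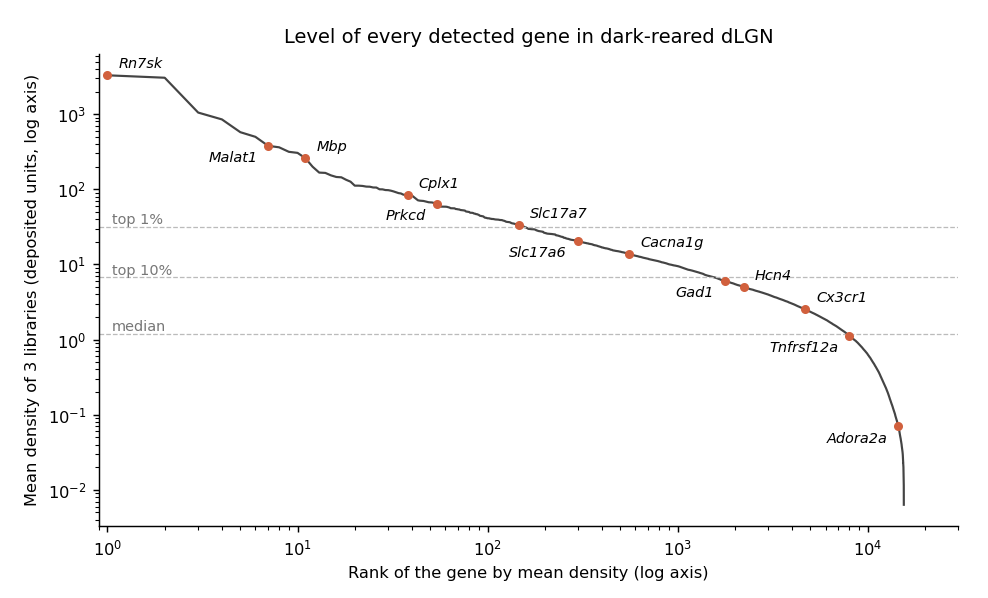
Mean density of every detected gene (y axis, deposited units, log scale) against its rank (x axis, log scale), with selected genes marked as points and the bounds of the top 1%, top 10% and median as dashed lines. Rn7sk stands first at 3287, Mbp at 259, Slc17a7 at 33.5 just above the bound of the top 1% (31.7), and Tnfrsf12a at 1.13 just under the median (1.203).

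Genes that load glutamate into vesicles were among the abundant neuronal RNAs. Slc17a7 (VGLUT1), the loader typical of cortical neurons, was at 29.2, 41.96 and 29.4 density, and Slc17a6 (VGLUT2), typical of subcortical neurons and retinal ganglion cells, at 18.8, 20.4 and 21.8. By density, Slc17a7 was higher in every library, by 1.63-fold on average, and most so in replicate 2. With the longest GENCODE transcript as length, the log2 ratio of Slc17a6 over Slc17a7 was -0.59 ± 0.309. From counts without length it was -0.086 ± 0.309, so no order is given on that scale. Without replicate 2, Slc17a7 averaged 29.3. Slc17a8 (VGLUT3) had no read in replicate 1 and at most 0.0316 density in the others.

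Among GABA genes, uptake and breakdown stood above synthesis. Slc6a11 (GAT3), a transporter that takes up GABA, was at 36.6, 28.2 and 37.9 density. Abat, which breaks GABA down, was at 18.7, 13.8 and 19.5. The synthesis enzymes Gad1 and Gad2 were at 8.61, 3.296 and 6.21 and 6.27, 1.897 and 6.47, and the vesicular loader Slc32a1 at 7.03, 1.903 and 6.87. Replicate 2 was the lowest of the libraries in each of these 3 genes. Without it, their means were 7.41, 6.37 and 6.95, against 6.04, 4.88 and 5.26 with it. Slc32a1 shares 24.9% of its exon bases with Gm14205. The levels of Gad1 and Gad2 kept no fixed order over the libraries. Slc6a5, the glycine transporter of glycinergic neurons, was close to nothing at 0.013, 0.0297 and 0.0244.

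Most genes by which monoamine neurons make and take up their transmitters were near or under the floor. Of 14 listed genes of these phenotypes, 8 were detected and 6 were under the floor. Th, which makes the dopamine precursor, was at 0.0152, 0.0045 and 0.0246 density, and Tph2, which makes the serotonin precursor, at 0, 0.0159 and 0.0161. Slc6a4, the serotonin transporter, had no read in replicate 1 and at most 0.0045 in the others. Ache, the enzyme that splits acetylcholine, was far higher at 5.57, 4.33 and 6.23. Chat and Slc18a3 were not analysed here.

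Among 31 listed neuropeptide and granule genes, 7 were in the top 10% and 12 under the floor. The high ones were mainly granule proteins: Pcsk1n, an inhibitor of prohormone convertase, at 45.3, 34.1 and 43.9, and Scg2, a secretogranin, at 13.8, 13.9 and 18.1. Cck, the cholecystokinin peptide, stood out among transmitter peptides at 22.4, 22.9 and 27.4. Interneuron peptides were lower and uneven: Sst (somatostatin) was at 2.79, 0.834 and 1.104, Npy at 1.21, 0.152 and 1.16 and Penk (enkephalin) at 1.097, 0.167 and 1.56, lowest in replicate 2 in each case. Their means without replicate 2 were 1.95, 1.19 and 1.33. Vip, Tac1 and Crh stayed at or below 0.224 in every library.

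All 34 listed genes of vesicle release were detected, and 16 were in the top 10% (median percentile 88.9 of detected genes). Snap25, a SNARE of the plasma membrane, was at 81.8, 82.7 and 99.2 density and Syt1, the fast calcium sensor, at 53.2, 56.5 and 57.5. Complexins were unequal, with Cplx1 at 89.4, 72.5 and 90.1 and Cplx2 at 3.02, 8.36 and 4.03. The ratio was 17.9-fold on average, with Cplx2 highest in replicate 2. Without that library Cplx2 averaged 3.52. Vamp2, the vesicle SNARE, was 2.37 times Vamp1, at 45.1, 42.2 and 55 against 22.2, 16.9 and 21.1. Syt2, the sensor of fast inhibitory terminals, was at 0.8104, 0.1403 and 0.9105, lowest in replicate 2 and 0.8604 without it.

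Channels of burst firing were each led by 1 gene of their family. Cacna1g, a T-type calcium channel pore, was at 14.4, 13.4 and 13.4 density and varied little between libraries (13.7 ± 0.569). The other T-type pores were lower, with Cacna1i at 1.39, 0.511 and 1.14 and Cacna1h at 0.603, 0.904 and 0.578. Cacna1g exceeded Cacna1h 20.2-fold and Cacna1i 14.8-fold. Cacna1i, the T-type pore known from the reticular nucleus, was lowest in replicate 2, and averaged 1.26 without it. Cacna1a, the P/Q-type pore of release sites, was at 8.67, 8.31 and 7.52.

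Hcn2 was the main HCN channel at 30.1, 22.4 and 24.1 density, followed by Hcn4 at 5.65, 4.34 and 5.07. Hcn3 was at 0.754, 0.441 and 0.728. The order of these genes was the same in 3 of 3 libraries, and no 2 neighbours in it overlapped. Pex5l (TRIP8b), which controls where HCN channels sit, lay between Hcn2 and Hcn4 at 10.9, 7.87 and 9.59. Cyclic nucleotide-gated genes of this list were near or under the floor.

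Potassium channels of fast firing led their list. Kcnc2 and Kcnc1, pores of the Kv3 type, were at 19.8, 19.4 and 20.9 and 14.2, 12.6 and 12.7 density, with Kcnc2 higher in every library by 1.52-fold. From counts without length, the log2 ratio of Kcnc2 over Kcnc1 was 0.101 ± 0.122, so this order depends on length. Kcnq3, a subunit of the M-current, was at 13.8, 11.9 and 13.6 and overlapped Kcnc1. Kcnd2, an A-type pore, stood at 7.79, 8.47 and 9.73. Of 43 listed voltage-gated potassium channel genes, 10 were in the top 10%, 23 were above the median and 2 were under the floor. The leading inward rectifier was Kcnj10, a channel of glia, at 28.9, 24.4 and 30.1. The leak channels Kcnk9 and Kcnk3 (TASK) were at 2.38, 1.78 and 2.22 and 1.96, 1.76 and 2.02. Kcnk9 was 1.105 times Kcnk3 by density, but with the longest GENCODE transcript as length the order turned round, at -0.54 on the log2 scale, so no order is given for this pair.

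Among sodium channel pores, Scn1a was at 11.6, 10.6 and 12.4 density, Scn8a at 8.21, 7.89 and 8.12 and Scn2a1 at 5.85, 7.25 and 7.297, in this order in each library without overlap. Scn1a was 1.71 times Scn2a1. Scn3a, a pore of immature neurons, was at 0.732, 0.813 and 0.874. The chloride exporter of neurons, Slc12a5 (KCC2), was at 21.3, 19.3 and 21.4, and the importer Slc12a2 (NKCC1) at 8.71, 9.54 and 10.2, a ratio of 2.18 (plot of transmitter and channel genes).

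**Figure D2:**
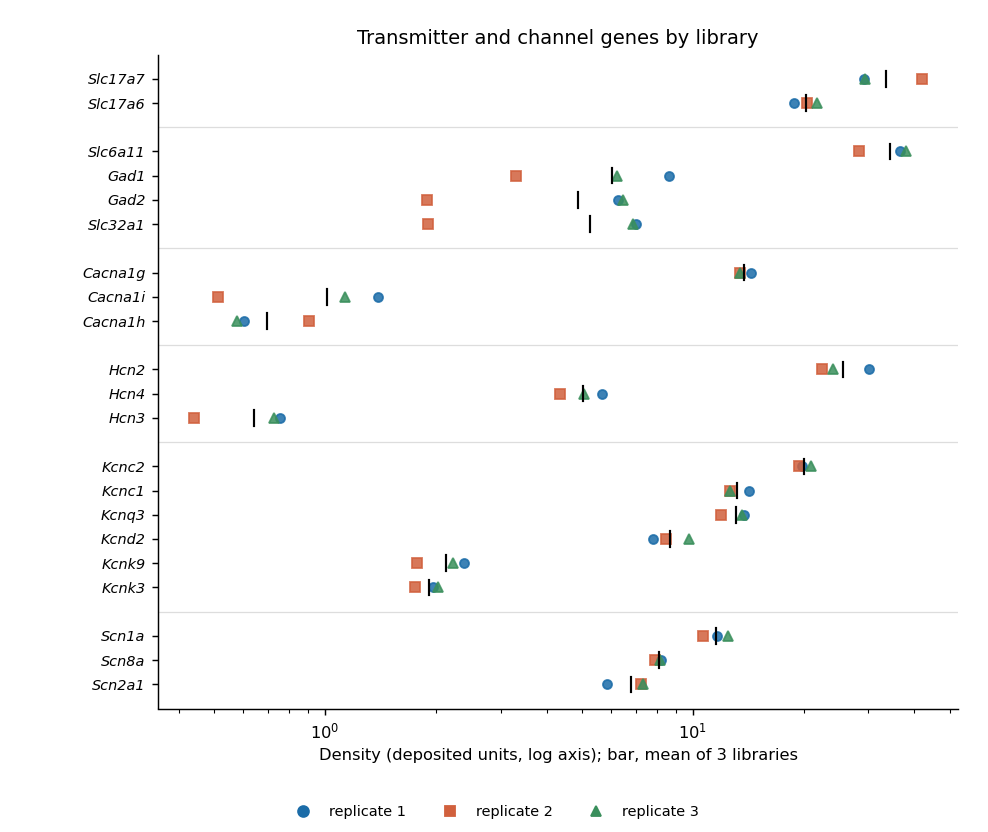
Density of transmitter and channel genes in each of the 3 libraries (x axis, deposited units, log scale; symbols, libraries; black bars, means), with families set apart by grey lines. Replicate 2 sits below the others for Gad1, Gad2 and Slc32a1 and above them for Slc17a7, and the HCN genes plotted keep 1 order from Hcn2 (mean 25.6) to Hcn3 (mean 0.641).

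All 16 listed genes of AMPA receptors and their auxiliary subunits were detected. Gria1 was at 9.14, 11.3 and 10.1 density, Gria4 at 6.68, 6.31 and 7.11 and Gria3 at 5.91, 5.65 and 6.38. Gria2, the subunit that makes the receptor impermeable to calcium, was the lowest of the 4 pores at 3.504, 4.77 and 4.23. Gria4 was above Gria3 in 3 of 3 libraries (log2 ratio 0.165 ± 0.0114), although their ranges overlapped. Gria1 was 2.45 times Gria2, in 3 of 3 libraries. With the longest GENCODE transcript as length, the log2 ratio of Gria2 over Gria1 went from -1.29 to -1.52. From counts without length it was -0.61, so the order of this pair held and its size did not. That of Gria4 over Gria1 was -0.60 from counts without length, so Gria2 and Gria4 were about level there. Adarb1 (ADAR2), the enzyme that edits the Gria2 transcript, was at 53, 47.1 and 50.3, in the top 1%.

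Grin1, the obligatory NMDA receptor subunit, was at 29.3, 26.6 and 27.4 density. Grin2b followed at 13.01, 13.2 and 13.8, and Grin2a was at 3.67, 4.09 and 3.301, so that Grin2b was 3.63 times higher. Grin2c was at 6.88, 5.88 and 5.21 and Grin2d at 4.19, 3.53 and 3.36, and the ranges of Grin2d and Grin2a overlapped. Of the metabotropic receptors, Grm4, which acts presynaptically, was at 9.49, 8.06 and 8.09 and Grm5, which couples to phospholipase C, at 3.696, 4.67 and 4.73, lower in 3 of 3 libraries.

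A few subunits led the GABA-A receptor genes. Gabra4 was at 17.6, 17.9 and 21.1 density, Gabrb2 at 16.4, 16.6 and 19.5 and Gabrd at 15.1, 13.4 and 11.9, subunits that together form receptors outside synapses in thalamus. Gabra4 was above Gabrb2 in 3 of 3 libraries (log2 ratio 0.106 ± 0.007), although their ranges overlapped. Gabrd lay below both. Gabra3, the subunit of the reticular nucleus, was at 1.21, 0.825 and 1.55, and Gabra4 exceeded it 16.2-fold.

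Of 17 listed GABA-A genes, 4 were in the top 10% and 2 were under the floor. Gabra6, a cerebellar subunit, had 0 reads in all 3 libraries, which the floor of 3 reads puts at no more than 0.524, 0.163 and 0.197 CPM. Gabra5, known from hippocampus, was at 0.227, 1.19 and 0.421, highest in replicate 2 and 0.324 without it. Both subunits of the GABA-B receptor were in the top 1%, Gabbr1 at 45.4, 43.8 and 47.3 and Gabbr2 at 42.5, 38.2 and 40.02. Glrb, the beta subunit of glycine receptors, was at 9.83, 9.76 and 11.6.

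Receptors of the brainstem modulators were lower as lists. Their median percentiles were 25.8 for acetylcholine, 10.5 for serotonin and 34.3 for noradrenaline, dopamine and histamine. Those of the glutamate, GABA and glycine receptor lists were 56.55 to 83.7. Single members were not low, with 3 acetylcholine genes and 2 noradrenaline, dopamine and histamine genes in the top 10%. The nicotinic subunits Chrna4 and Chrnb2, which assemble with each other, were at 13.3, 11.3 and 11.9 and 7.31, 6.67 and 7.12 density, and Lynx1, a membrane protein that damps nicotinic receptors, at 30.6, 28.2 and 32.2. The muscarinic receptors were at 1.45, 1.496 and 1.501 for Chrm2, 0.937, 1.305 and 0.7598 for Chrm3 and 0.122, 0.923 and 0.0925 for Chrm1. Chrm1 was highest in replicate 2 and averaged 0.107 without it, which left the log2 ratio of Chrm3 over Chrm1 at 2.99 in place of 2.16. Hrh3, a histamine autoreceptor and heteroreceptor, was at 12.1, 10.03 and 11.2 and Adra1b, a noradrenaline receptor, at 7.26, 6.41 and 7.33.

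No serotonin receptor reached the top 10%. Htr7 and Htr2c led with 1.64, 1.88 and 1.89 and 1.36, 1.59 and 2.45 density, and their ranges overlapped. Drd2, a dopamine receptor, was at 0.713, 0.572 and 0.964. Adora1, the inhibitory adenosine receptor, was at 8.85, 10.2 and 9.94 and the striatal Adora2a at 0.0379, 0.0799 and 0.0921, a ratio of 148. Cnr1, the cannabinoid receptor, was at 0.339, 0.508 and 0.392, and Oprm1, the mu opioid receptor, at 0.0852, 0.0508 and 0.207 (plot of receptor genes).

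**Figure D3:**
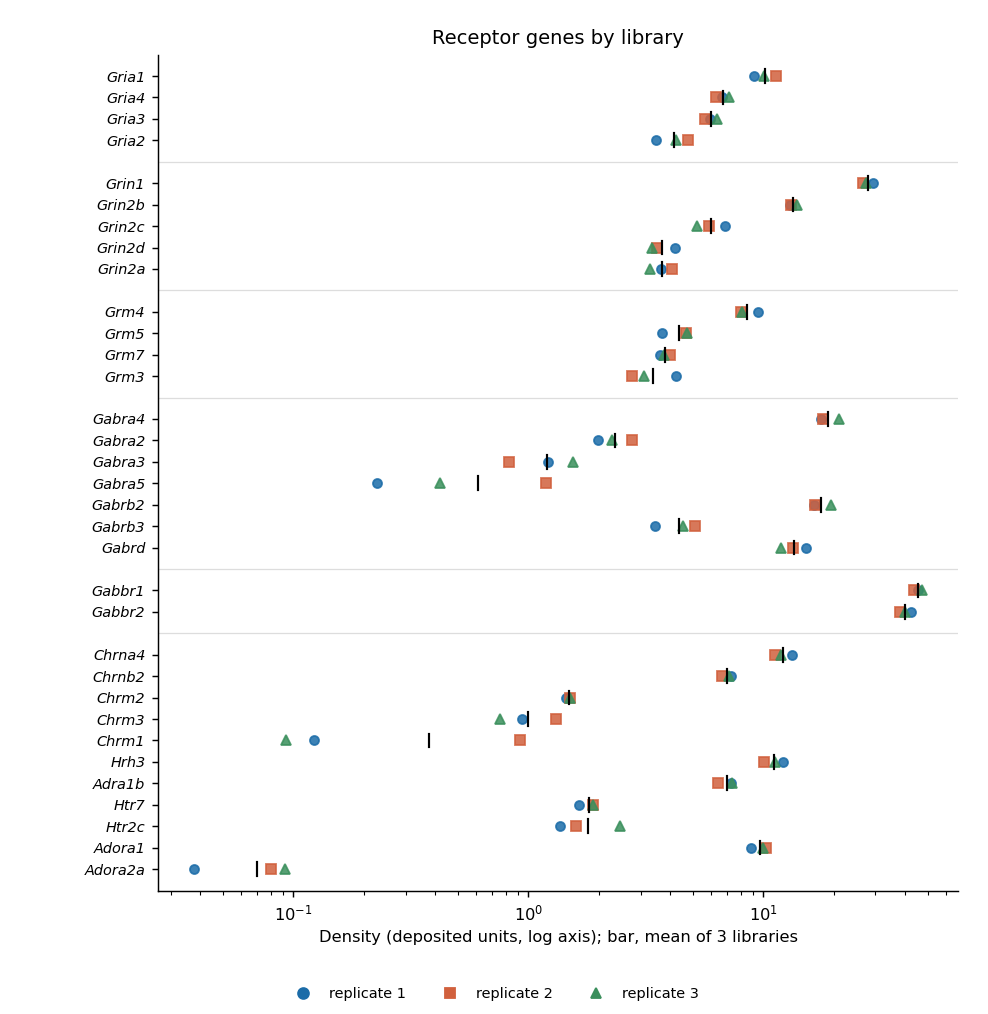
Density of receptor genes in each of the 3 libraries (x axis, deposited units, log scale; symbols, libraries; black bars, means), with receptor families set apart by grey lines. Gabra4 and Gabrb2 have means of 18.9 and 17.5 while Gabra3 and Gabra5 have 1.195 and 0.612, and Chrm1 and Gabra5 are the genes in which replicate 2 lies farthest above the others.

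Transcription factors of the thalamus were present. Rora, a nuclear receptor of relay neurons, was at 23.5, 28.2 and 30.3 density, 6.72 times its relative Rorb. Zic1, a zinc finger factor, was at 17.9, 16.9 and 19.7. Tcf7l2 and Lef1, which act in the Wnt pathway and mark thalamic neurons, were at 8.05, 7.64 and 9.998 and 5.49, 3.84 and 5.32, with Tcf7l2 higher in 3 of 3 libraries. All 22 listed thalamic factors were detected, 4 of them in the top 10% (median percentile 69.9). Gbx2, which specifies thalamic neurons in the embryo, was at 0.64, 1.59 and 1.33 and shares 43.5% of its exon bases with another gene.

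Of 24 listed factors of inhibitory lineages, 17 were detected and 3 were above the median (median percentile 18.8). Nr2f1, an orphan nuclear receptor, led them in the top 10% at 7.55, 6.32 and 6.41 density, and Sp9, a zinc finger factor, was at 1.48, 1.21 and 1.19, both with little spread. The factors below were lower and uneven. Sox14, a factor of thalamic interneurons, was at 0.615, 0.334 and 0.832 density, and Gata3 at 0.269, 0.108 and 0.404, both lowest in replicate 2 and at 0.723 and 0.337 without it. Six3 was at 0.788, 0.0255 and 0.088 and Isl1 at 0.176, 0.0041 and 0.011, factors of the prethalamus and other forebrain inhibitory cells, and replicate 1 was the highest in both, which averaged 0.438 and 0.0938 without replicate 2. Cortical factors were high in another library: Neurod6 was at 0.0324, 1.64 and 0.0719 and Tbr1 at 0.0766, 0.271 and 0.0528. Replicate 2 was the highest in both genes, whose means without it were 0.0522 and 0.0647. Of 8 listed hindbrain, cerebellar and habenular factors, 2 were detected.

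Factors that neuronal activity induces were mostly low before light, with 23 of 24 detected and 7 above the median. Fos was at 1.299, 0.599 and 2.19 density, Npas4 at 0.272, 0.205 and 0.346, Nr4a1 at 0.603, 0.589 and 0.896 and Fosb at 0.0264, 0.0308 and 0.046. Egr1 was higher at 1.97, 2.77 and 2.89. Fos varied over 3-fold between libraries in CPM, at 13.3, 6.56 and 21.9, and averaged 1.74 density without replicate 2, so its level at this time is uncertain. Klf9 at 9.71, 10.2 and 9.86 and Jun at 8.61, 6.99 and 7.45 stood in the top 10%.

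The markers of relay neurons were present, as the labelled tissue requires. All 28 listed markers were detected, 18 were in the top 10% and 4 in the top 1% (median percentile 94.5). Prkcd was at 66.4, 59.2 and 64.8 density, Cplx1 as above, and Pdp1, a phosphatase of pyruvate dehydrogenase, at 28.2, 26.5 and 33.4. Nefl, the light neurofilament, was at 41.7, 37.05 and 42.1, but shares 32.8% of its exon bases with Nefm in the annotation. Tnnt1, a troponin used as a thalamic marker, was at 9.86, 8.44 and 11.6. The lowest members were Cbln2 and Cbln1, secreted synapse organisers, at 0.616, 0.651 and 0.968 and 0.329, 0.486 and 0.484.

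Calcium-binding proteins that divide neuron classes differed in level. Calb2 (calretinin) was at 6.42, 10.3 and 11 density, Calb1 (calbindin) at 2.14, 5.08 and 4.696 and Pvalb (parvalbumin) at 3.23, 0.575 and 1.34. Calb2 was 2.42 times Calb1 in 3 of 3 libraries, while Pvalb exceeded Calb1 in replicate 1 only. Pvalb averaged 2.28 without replicate 2. Nrgn (neurogranin), a calmodulin-binding protein of forebrain neurons, was at 1.997, 11.7 and 2.54, highest in replicate 2 and 2.27 without it.

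Glial genes held the largest summed level of the cell type lists. The 20 myelin markers summed to 1461.6, 1539.5 and 1565.3 density, and 18 were in the top 10% with a median percentile of 98.4. Cldn11, the tight junction protein of myelin, was at 89.2, 103 and 100.1, and Mag, an adhesion protein of the inner myelin, at 56.6, 55.1 and 55.8, with an SD of 0.733. Mbp was 10.1 times Mog, a protein of the myelin surface. The 24 astrocyte markers summed to 883, 739 and 914, and 20 were in the top 10%. In CPM the astrocyte sums lay closer together, at 12902.1, 12434.5 and 13475.0. Cst3 (cystatin C) was at 155, 124 and 154, Apoe at 123, 87.7 and 124 and Sparcl1, a secreted synaptic organiser, at 112, 88.2 and 117, all lowest in replicate 2.

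Glutamate uptake was led by Slc1a2 (GLT-1) at 35.7, 42.2 and 43.8 density, with Slc1a3 (GLAST) at 15.8, 13.3 and 15.4, a ratio of 2.73. Gfap, a filament of reactive and white matter astrocytes, was at 13.8, 14.7 and 10.1. Olig1, a factor of the oligodendrocyte lineage, was the highest glial factor at 41.9, 32.2 and 39.1, and Sox10 followed at 11.9, 10.1 and 10.4. Precursor genes were lower, with Pdgfra, their growth factor receptor, at 2.36, 2.44 and 2.33. Gpr17, a receptor of cells about to myelinate, was at 8.22, 8.19 and 9.12.

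Microglial and endothelial markers lay near the median of detected genes, and mural markers below it. The 19 microglia markers had a median percentile of 56.4, the 14 endothelial markers 48.3 and the 11 mural markers 32.8, and all of them were detected. C1qb, a complement subunit, was at 5.61, 4.03 and 4.61 density, Csf1r, the survival receptor of microglia, at 4.21, 3.796 and 3.74, and Cx3cr1, the fractalkine receptor, at 2.66, 2.38 and 2.51. Cldn5, the tight junction protein of brain endothelium, was at 5.12, 3.698 and 5.01.

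Markers of the habenula, the choroid plexus and the retina were mostly low. Of 10 listed habenula markers, 5 were detected and 1 was in the top 10%. The defining genes Tac2 and Gpr151 had no read in replicate 1 and at most 0.0278 density in the others. The 12 choroid plexus and ependyma markers summed to 2.92, 2.202 and 3.21, with Ttr, the defining choroid protein, at 0.177, 0.156 and 0.249. Reticular and ventral geniculate markers summed to 48.8, 39.1 and 53.6, with replicate 2 the lowest. Of these 14 listed markers, 13 were detected and 2 were in the top 10%. All 11 listed meningeal and fibroblast markers were detected, with a median percentile of 61.0. Haemoglobin genes of blood were present, Hbb-bs at 27.7, 22.4 and 18.7, highest in replicate 1. Ptgds, a prostaglandin synthase of meninges and oligodendrocytes, was at 43.5, 38.3 and 37.05, in the top 1%, while Col1a1, a fibroblast collagen, was at 2.47, 2.05 and 2.18. Of 14 retinal genes 2 were detected, and of 26 listed olfactory receptor genes 4 were (plot of cell type lists). The part of neighbouring tissue in the neuronal levels was not tested.

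**Figure D4:**
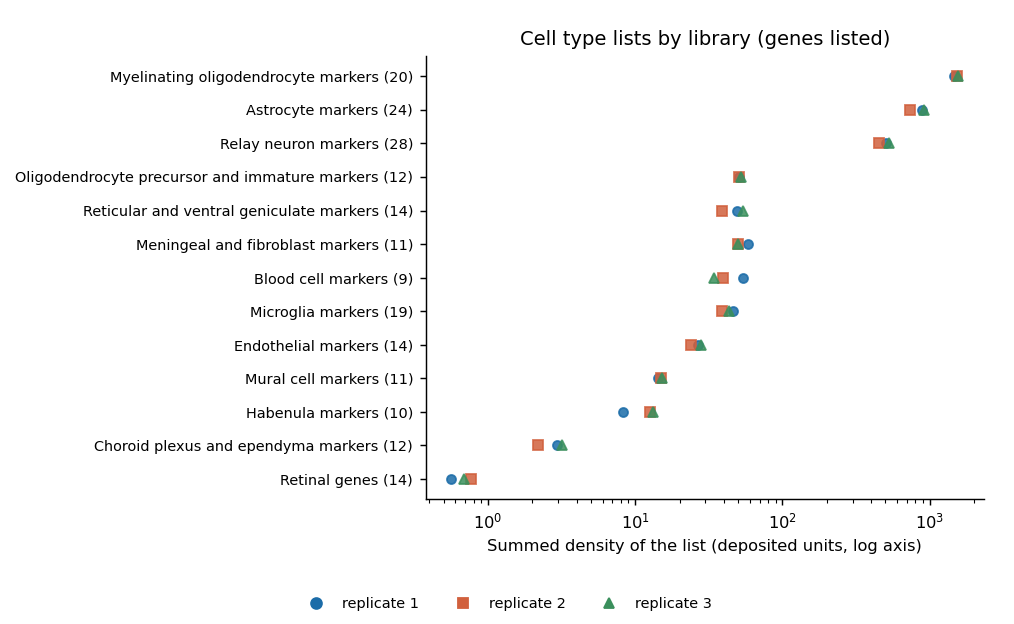
Summed density of each cell type list in each of the 3 libraries (x axis, deposited units, log scale; symbols, libraries; number of listed genes in brackets). Myelin, astrocyte and relay neuron lists lie at 455 or above in every library, and habenula, choroid plexus and retinal lists at 13.2 or below.

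Levels agreed closely between libraries apart from a small set. Over the 9747 genes with a mean of at least 10 CPM, the median coefficient of variation (CV) was 7.55%, where counting alone gives 4.75%. The CV was under 10% for 67.3% and under 20% for 94.7% of these genes. It was over 50% for 56 genes, of which 41 were highest in replicate 2, 14 in replicate 3 and 1 in replicate 1. Over the 2 libraries left, 17 genes passed 50% without replicate 2, and 65 and 74 did without replicates 1 or 3.

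The 8 genes with the highest CV were all highest in replicate 2. Ano3, a member of the anoctamin family, was at 0.683, 28.1 and 3.76 CPM, Icam5 (telencephalin) at 3.25, 38.5 and 3.29 CPM and Nptx1, a neuronal pentraxin, at 14.5, 150.3 and 20.2 CPM. Icam5 shares 30.8% of its exon bases with another gene. Bc1, a small RNA of neurons, was at 12.3, 4.98 and 44.4 CPM and mt-Rnr1 at 2003.1, 2258.2 and 7613.3 CPM, both highest in replicate 3. The 3 Y-linked genes Ddx3y, Kdm5d and Uty and the X-linked Xist were also among the 56. That 41 of them were highest in replicate 2 stands beside that library's Neurod6 and Neurod2 levels, and the part of cortical or hippocampal tissue in it was not tested (plot of spread).

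**Figure D5:**
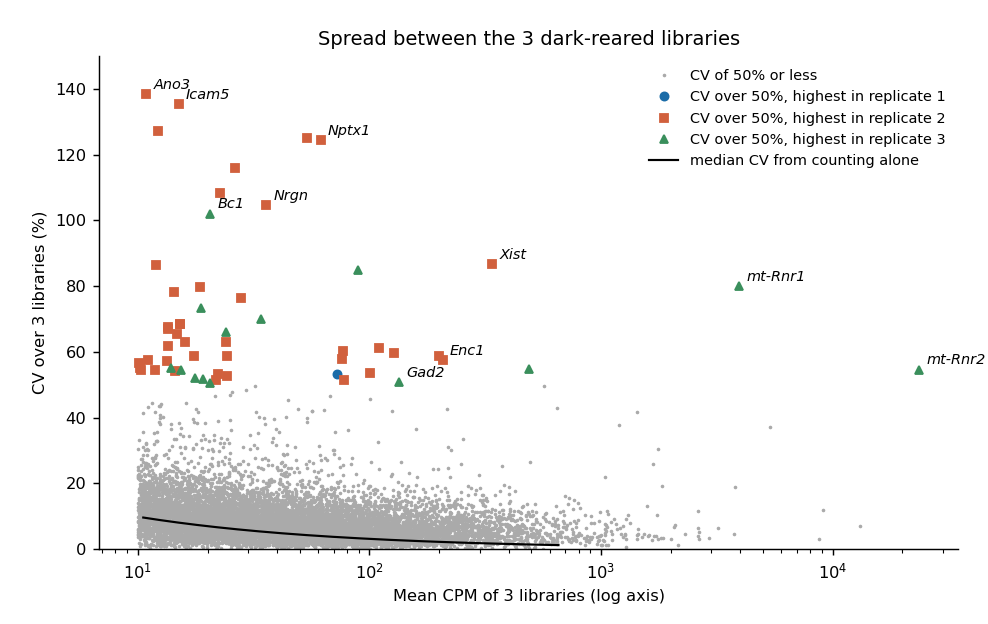
CV over the 3 libraries (y axis, percent) against mean CPM (x axis, log scale) for each gene with a mean of at least 10 CPM. Grey points are genes with a CV of 50% or less, coloured symbols the 56 genes above it by the library in which they were highest, and the black line is the running median of the CV that counting alone gives. Most of the coloured symbols are squares (41 genes, highest in replicate 2).

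Fn14, the receptor in the title of the series, is encoded by Tnfrsf12a and was at 0.904, 1.1 and 1.39 density (1.13 ± 0.243), at percentile 48.4 of detected genes. Its ligand gene Tnfsf12 (TWEAK) was at 0.234 ± 0.0303 and shares 48.2% of its exon bases with another gene, so its reads could not be assigned with certainty. Both genes had reads in every library, and the ranges of Tnfrsf12a and Tnfsf12 did not overlap.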

How the data were processed

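The submitters' processing notes name BWA, edgeR 3.14.0 and GRCm38 without their roles; the annotation, counting tool and strand setting were not given in the sources used here. Deposited by the authors were whole-number read counts per gene and a density signal that equals counts over exon length times a library constant, as read from the values (to within 1 read). The tables of both light times were joined by gene number (19703 genes in both, 0 conflicts); 0 columns belonged to no sample, and the lowest total listed over a table's 6 libraries was 4 reads. From counts, CPM used TMM library sizes (edgeR 4.0.16), with DESeq2 1.42.0 size factors as an alternative. One group has no comparison, so no test was run: a sign-flip test over 3 libraries cannot give p under 0.25. SDs measure the spread between these samples. Detection took 3 reads in each library; percentiles are of mean density among detected genes. Ratios were taken within libraries, and computations were tested on simulated data. A gene's range runs over its densities in the 3 libraries, so ranges can overlap where 1 gene was higher in every library. Overlaps and biotypes came from RefSeq and GENCODE M21.

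Some genes that the rule below takes are not reported here. Genes named are the 15 with the highest density, CPM and CV (from 10 CPM), the 5 highest and the key genes of each of 49 lists, and 30 pairs; other genes are said to be picked later or are list members. The members and lists were chosen with earlier results of these data known. Alternatives were other floors, scalings, lengths and filters, and each replicate left out. Python 3.11.15 and pandas 2.3.3 were used.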

Additional observations from a re-analysis of the deposited data

How the results depend on the processing

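Of the results, 5 of the 6 summaries kept their value within the bounds set for them under the planned settings that changed the processing. The summaries of gene lists and of pairs are counts, which held while many single medians and ratios moved. The share of reads in the 100 most counted genes did not stay within its bounds. This share (19.7%) became 17.2% without the mitochondrial genome and 24.9% without genes whose span overlaps another listed gene. Detected genes numbered 17522 with a floor of 1 read and 13427 with 10. The median CV (7.55%) ranged from 5.50% to 6.70% when each replicate was left out. Those are CVs over 2 libraries, whose median runs lower than over 3, so they are not comparable with 7.55%. The pairs of related genes with 1 order in all libraries, 28 of 30, numbered 27 from counts without length. There the log2 ratio was -0.086 ± 0.309 for Slc17a6 over Slc17a7 and 0.101 ± 0.122 for Kcnc2 over Kcnc1. In both pairs the SD was larger than the mean, so their order by density depends on length. In that setting 18 of the 30 log2 ratios counted as moved and 12 as the same, so the size of many ratios depends on length. With the longest GENCODE transcript as length, chosen after seeing the data, the log2 ratio of Kcnk9 over Kcnk3 went from 0.14 to -0.54. By construction, only the length differs there. The number of gene lists with a median at or above that of detected genes, 27 of 49, was 21 to 31 under the other settings. The median itself counted as moved in 36 of 49 lists by mean CPM and in 47 among all listed genes. It moved in 24 lists without genes whose span overlaps another listed gene. Leaving out replicates 1, 2 and 3 moved it in 34, 6 and 1 lists. Of 337 named genes with at least 1 CPM, none moved over 1.5-fold with unscaled totals or DESeq2 size factors, while 18 did without replicate 2, 3 without replicate 1 and 6 without replicate 3. No paired analysis was possible because all 3 libraries belong to 1 group. The 5728414 reads of replicate 1 limit what can be called at low levels.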

Other observations

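Other groups of genes in the same 3 libraries were as follows. Of 82 listed genes of cytosolic ribosomal proteins, 73 were detected and 21 were in the top 10% of density, led by Rplp1 at 41.7, 38.1 and 45.5. Many of these genes have processed copies elsewhere in the genome, so reads may have been split between copies, and their levels are uncertain. Gap junction genes of astrocytes and oligodendrocytes led their list, with Gja1 at 16, 15.2 and 18.2 density and Gjc3 at 10.7, 10.9 and 10.4. Gjd2, the connexin of neurons, was at 0.725, 0.453 and 0.746, lowest in replicate 2. No gene of the TRP channel list reached the top 10%.

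Enzymes of endocannabinoid turnover were abundant, with Mgll, which degrades 2-arachidonoylglycerol, at 9.37, 9.24 and 9.28 density and Dagla, which makes it, at 8.94, 8.89 and 8.55. Their receptor Cnr1 was at 0.413 on average. Nos1, the neuronal nitric oxide synthase, was at 0.523, 0.692 and 0.624. Among growth factor receptors, Ntrk2, the receptor of BDNF, was at 7.68, 7.11 and 8.35, whereas Bdnf itself averaged 0.102 ± 0.0379. Vtn (vitronectin) led the mural markers at 5.33, 5.25 and 5.17.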
